A study of Mus musculus with 6 samples.

Results

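The entry into the cell cycle was examined through 9 genes that act at the G1 restriction point: the INK4 inhibitors Cdkn2a, Cdkn2c and Cdkn2d, the KIP inhibitor Cdkn1b, the kinases Cdk4 and Cdk6, the D cyclins Ccnd2 and Ccnd3, and Rb1. They were taken by name, and each matched 1 of the 54232 genes of the deposited count table. The cells were regulatory T (Treg) cells, the CD4 T cells that restrain immune responses, isolated by their GFP signal from mouse spleen. Of the 6 libraries, 3 were wild type (WT) and 3 came from a conventional knockout (KO) of BAF60b, a subunit of the SWI/SNF chromatin remodelling complex encoded by Smarcd2. A conventional knockout lacks the gene in every cell of the animal, so the KO cells also developed without it. The sources used here do not give the strain, the age, any treatment or the allele that drives GFP.

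In G1, D cyclins bind CDK4 or CDK6, and the active kinases phosphorylate the retinoblastoma protein encoded by Rb1, which then releases E2F transcription factors to switch on genes of DNA synthesis. INK4 proteins bind CDK4 and CDK6 and block them. p27, the product of Cdkn1b, inhibits CDK2 complexes and also binds cyclin D complexes. T cells depend mainly on cyclins D2 and D3, and p27 is a known brake on the division of resting T cells. Cdkn2a encodes 2 unrelated proteins, p16Ink4a, which blocks CDK4 and CDK6, and p19Arf, which stabilises p53, and in most young tissues the gene is silent.

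Promoter sequences are shown for the genes on which the results turn. The RefSeq table (build GRCm38.p6) held windows of 250 bases before and 50 bases after the start for 7 of the 9 genes, 10 windows in all, and none was listed for Ccnd2 or Rb1. The first pair shows the separate starts of the Cdkn2a transcripts. Those of Cdk6, which rose in KO, and of Cdk4, which did not pass the test, follow. Capitals mark E2F motifs (TTTCCCGC, TTTCGCGC, TTTGCCGC or TTTGGCGC) and E-boxes (CACGTG), each searched on both strands.
Cdkn2a, p19Arf start (chr4:89294570-89294869, minus strand): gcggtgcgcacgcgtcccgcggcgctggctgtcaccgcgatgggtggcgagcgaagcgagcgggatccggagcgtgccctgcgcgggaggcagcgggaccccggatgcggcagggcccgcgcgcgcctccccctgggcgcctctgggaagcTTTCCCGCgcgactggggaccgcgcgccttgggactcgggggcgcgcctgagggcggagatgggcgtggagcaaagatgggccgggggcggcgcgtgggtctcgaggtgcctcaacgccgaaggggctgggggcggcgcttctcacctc
Cdkn2a, p16Ink4a start (chr4:89282143-89282442, minus strand): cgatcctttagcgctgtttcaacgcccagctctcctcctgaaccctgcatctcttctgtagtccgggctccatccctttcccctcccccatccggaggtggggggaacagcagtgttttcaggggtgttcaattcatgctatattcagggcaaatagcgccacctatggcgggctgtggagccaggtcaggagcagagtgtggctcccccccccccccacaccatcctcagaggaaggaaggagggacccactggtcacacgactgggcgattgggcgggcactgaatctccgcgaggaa
Cdk6 (chr5:3343643-3343942, plus strand): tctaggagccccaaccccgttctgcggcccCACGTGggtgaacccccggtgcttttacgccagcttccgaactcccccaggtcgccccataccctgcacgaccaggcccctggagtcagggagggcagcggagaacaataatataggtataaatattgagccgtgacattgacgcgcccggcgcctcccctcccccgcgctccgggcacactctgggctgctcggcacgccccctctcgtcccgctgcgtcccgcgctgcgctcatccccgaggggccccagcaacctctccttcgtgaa
Cdk4 (chr10:127063285-127063584, plus strand): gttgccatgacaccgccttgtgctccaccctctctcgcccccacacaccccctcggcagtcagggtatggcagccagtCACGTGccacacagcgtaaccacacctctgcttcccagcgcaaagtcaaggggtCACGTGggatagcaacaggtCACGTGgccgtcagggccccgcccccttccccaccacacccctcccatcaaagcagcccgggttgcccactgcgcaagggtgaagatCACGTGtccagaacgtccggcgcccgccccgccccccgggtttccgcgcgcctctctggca

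An E2F motif stood in 1 of the 10 windows, that of the p19Arf start, against 2.3% of all 32851 promoter windows of this length. E-boxes, the recognition sequence of MYC and other factors, stood in 3 windows, against 7.2% of all. The Cdk4 window held 4 of them, and those of Cdk6 and Cdkn2c held 1 each. The FOXO motif GTAAACA was found in 1 window, of Ccnd3 (3.6% of all promoters), and the CHR motif TTTGAA in 0 (17.9% of all). No 2 different motifs overlapped in these windows.

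The libraries held between 18167053 and 22502804 reads, and values are given as CPM, the reads of a gene per 1000000 reads of its library. Smarcd2 lay between 189.2 and 205.3 CPM in WT and between 57.5 and 59.3 CPM in KO (log2 fold change, log2FC, of -1.77, edgeR quasi-likelihood test with Benjamini-Hochberg adjustment, adjusted p = 6.77e-08), in the direction of the labels. The sources used here do not say which exons the allele removes. Of 7 Treg and T cell markers, all well above 0 in every library, Ikzf2 was called (log2FC 0.42, edgeR adjusted p = 0.00527) and the other 6 were not. Foxp3, the defining factor of Treg cells, lay between 541.6 and 561.8 CPM in WT and between 582.7 and 612.2 CPM in KO (adjusted p = 0.253), and Il2ra had a log2FC of -0.02 (adjusted p = 0.834). Of all 13602 genes tested, 6.45% were called at an adjusted p under 0.05, with 3.25% higher and 3.20% lower in KO, and the 3 KO and 3 WT values did not overlap in 25.4%. WT 1 and KO 2 had no reads of 4 Y-linked genes, whereas WT 2, WT 3 and KO 1 had both Y-linked and Xist reads and KO 3 had no Xist reads. The Y-linked sums were 0, 143 and 242 CPM in WT and 301, 0 and 450 CPM in KO. Xist, a transcript of female cells, had 455, 254 and 128 CPM in WT and 87.6, 441 and 0 CPM in KO. By these reads WT 2, WT 3 and KO 1 held cells of both sexes, more than 1 mouse would give. The mix of sexes differed between libraries of both genotypes. The labels do not say whether a library is 1 mouse or a pool, and the p-values therefore reflect no more than the spread among libraries. In these bulk samples, more cells with a transcript and more of it per cell cannot be told apart.

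All 9 genes passed the filter on low counts and 2 were called, Cdkn2a and Cdk6, both higher in KO, and 5 had positive and 4 negative log2FC values. With Cdkn2a included, the median log2FC was 0.12, against 0.00 over all genes tested. The median without regard to sign was 0.17, against 0.11 over all genes. Neither these medians nor the call rate of 22.2% (6.45% of all genes) are used as support. The reason is that Cdkn2a passed the filter on low counts only through its KO libraries. Without it, the log2FC values ran from -0.21 for Cdkn2c to 0.43 for Cdk6. Of the other 8 genes, 1 was called (12.5%). The 3 KO and 3 WT CPM values did not overlap for Cdkn2a and for 2 of these 8, Cdkn1b and Cdk6 (25%, near the 25.4% of all genes). With TMM scaling Cdk4 and Ccnd3 did not overlap either, which makes 4 of 8, against 25.7% of all genes.

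**Figure D1:**
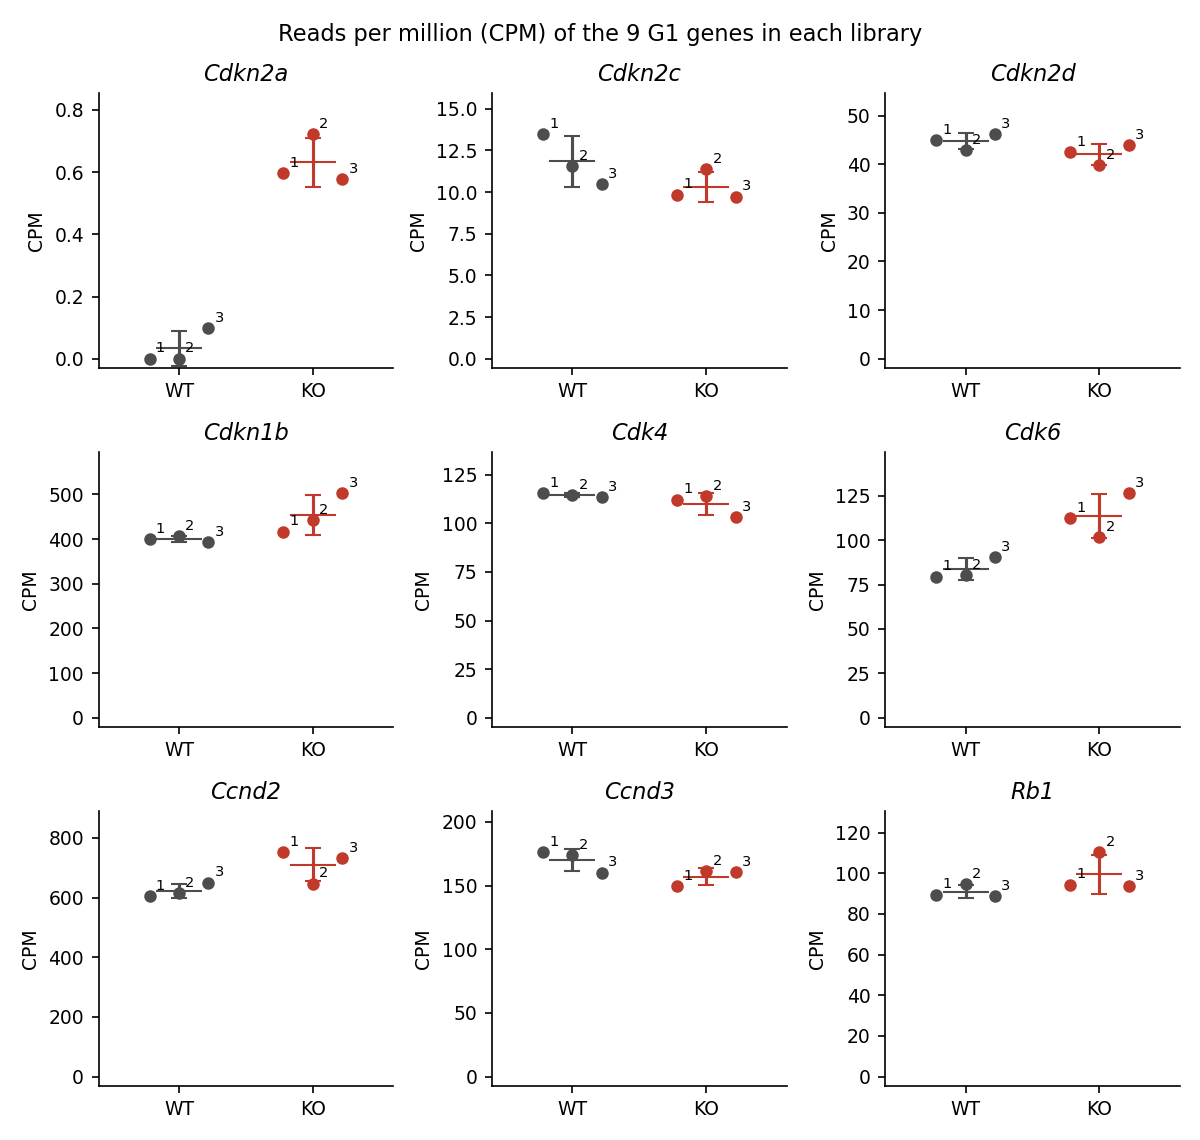
CPM of each of the 9 genes (vertical axis, from 0, scaled per gene) in the WT and KO libraries, with dots numbered by library and bars for mean ± SD (n = 3). Cdkn2a and Cdk6 lie higher in all 3 KO libraries than in any WT library.

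Among the INK4 inhibitors, Cdkn2a was nearly undetected in WT and present at a low level in every KO library. Cdkn2a (ENSMUSG00000044303) lies at chr4:89274471-89294653 on the minus strand of mm10, the build of all positions below. Its count was 0, 0 and 2 in WT 1, 2 and 3, against 12, 14 and 13 in KO 1, 2 and 3. These correspond to 0, 0 and 0.0994 CPM in WT and to 0.596, 0.723 and 0.578 CPM in KO. The groups did not overlap, and the KO libraries lay close to each other. A count of 0 allows up to 0.165 CPM in WT 1 and 0.143 CPM in WT 2 (3 counts, counting error only), which is below each KO value. Summed over libraries, 39 reads in KO against 2 in WT gave a ratio of 18.7 per read sequenced, with an exact 95% interval from 4.83 to 159.5 that covers counting error only. The edgeR test gave a log2FC of 3.99 (SE 0.73, adjusted p = 0.0112), a size that depends on the prior count because WT is near 0. Cdkn2a passed the filter on low counts only through its KO libraries, so this p and those below describe the data and are not used as support. The call was lost without WT 1 (adjusted p = 0.0600) or WT 2 (adjusted p = 0.0647), and without both libraries that lack Y-linked reads, an alternative chosen after seeing the data (adjusted p = 0.108). Over all alternatives the adjusted p lay between 0.000238 and 0.108, and DESeq2 gave an unadjusted p of 0.000820 and no adjusted p.

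The Cdkn2a count adds both products of the gene. In the GENCODE annotation the p16Ink4a and p19Arf transcripts start 12461 bases apart and share 575 exon bases, while 277 bases belong only to the first and 320 only to the second. The table gives 1 count per gene, so the share of each product was not measured. No other annotated gene overlaps Cdkn2a. Its neighbour Cdkn2b, the fourth INK4 gene, which encodes p15Ink4b, starts 16.4 kb further upstream and had 3 reads in each WT library against 12, 4 and 11 in KO. Cdkn2b did not pass the filter on low counts and was not tested. Its 27 KO reads against 9 WT reads gave a ratio of 2.87 (exact 95% interval from 1.31 to 6.94, counting error only), and its KO values, though all above WT, were uneven. Mtap, an enzyme gene of methionine salvage on the other side, had 46.4, 48.5 and 54.2 CPM in WT against 45.0, 46.0 and 44.9 CPM in KO. Its log2FC was -0.15 and did not pass (edgeR adjusted p = 0.281).

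**Figure D2:**
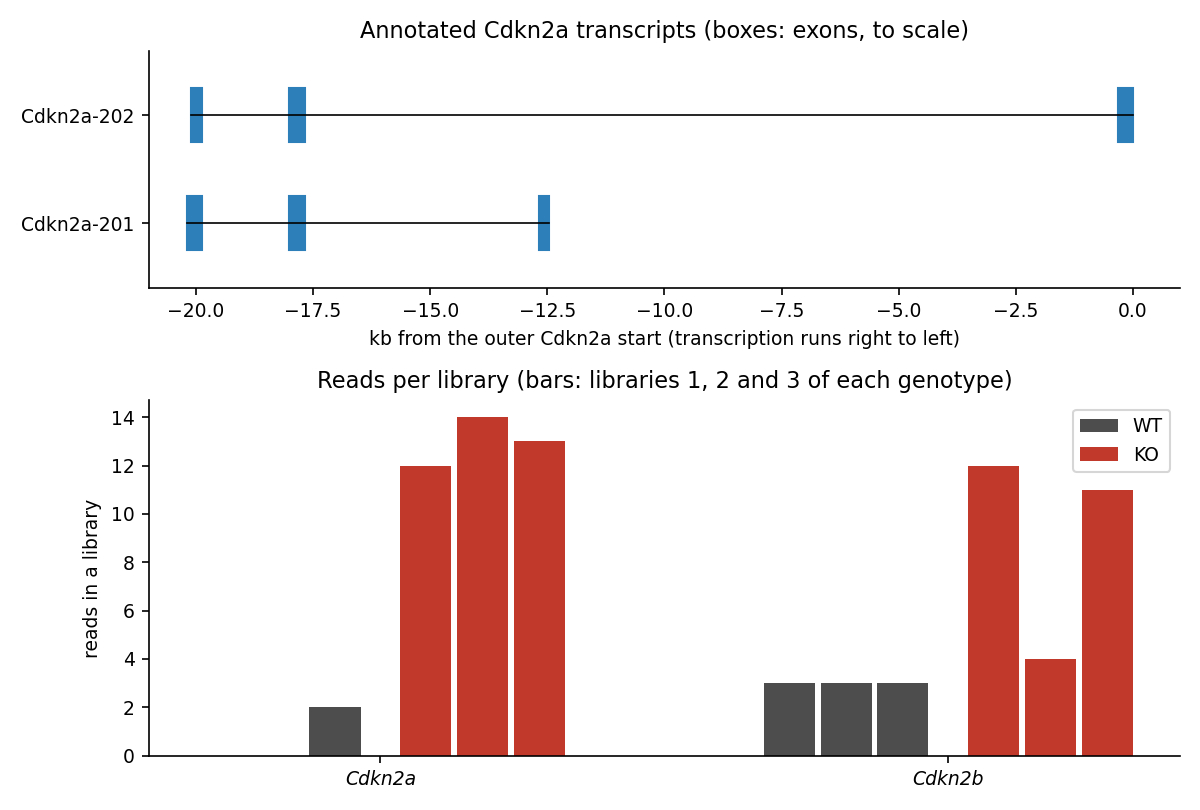
Upper panel: exons of the 2 annotated Cdkn2a transcripts, with the p16Ink4a form (Cdkn2a-201) below, as distance in kb from the outer start. Lower panel: reads of Cdkn2a and Cdkn2b in each library, where Cdkn2a has 0, 0 and 2 reads in WT and 12 to 14 in KO.

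Markers of other cell types were found in every library, most of them at low levels. Summed over 5 monocyte and macrophage markers, the level ranged from 21.0 to 26.8 CPM over the WT libraries and stood at 33.3, 76.2 and 11.5 CPM in KO 1, 2 and 3. The sum of 2 plasma cell markers ranged from 4.46 to 7.01 CPM over the WT libraries. In KO 1, 2 and 3 it stood at 20.1, 20.7 and 5.47 CPM. Most of it was Jchain, which was not called (edgeR adjusted p = 0.0961). Sdc1, the other marker, was called higher in KO (log2FC 2.84, edgeR adjusted p = 0.0123). Sdc1 had 3, 5 and 3 reads in WT 1, 2 and 3 and 31, 39 and 14 in KO 1, 2 and 3. Like Cdkn2a, it passed the filter on low counts only through its KO libraries, so its p is not used as support. Both sums were lowest among the KO libraries in KO 3 and highest in KO 2. Cdkn2a had 13 and 14 reads there, too few to compare these libraries. The sum of 3 neutrophil markers, like Sdc1, lay above WT in every KO library (0 to 0.0550 CPM in WT, 0.133 to 0.310 CPM in KO). These sums rest on very few reads, since no neutrophil marker had more than 5 reads in a library and none was tested. The KO 3 sum of 0.133 CPM is the level of 3 reads. B cell markers summed to 14.1 to 17.1 CPM in WT and 10.98, 10.95 and 8.399 CPM in KO. NK cell markers summed to 2.14 to 2.92 CPM in WT and 0.889 to 1.69 CPM in KO, and the 2 markers went opposite ways. Klrb1c was called lower (log2FC -1.14, edgeR adjusted p = 0.0353), and Ncr1, not tested, had 0 reads in each WT library and 4, 5 and 1 in KO. Dendritic cell markers summed to 0.385 to 0.497 CPM in WT and 0.0889 to 1.81 CPM in KO. Erythroid markers summed to 0.428 to 2.42 CPM in WT and stood at 1.99, 9.40 and 0.267 CPM in KO 1, 2 and 3. Of the pair of stroma and endothelium markers, Pecam1, which some leukocytes also express, had 201.3 to 214.7 CPM in WT and 209.3, 253.0 and 189.6 CPM in KO, and Col1a1 had 0.894 to 1.38 CPM over all libraries. The pair of CD8 T cell markers summed to 11.3 to 14.9 CPM in WT and 13.0 to 13.3 CPM in KO. None of these lists had a marker at 0 in all 6 libraries, and the neutrophil markers S100a8 and Ly6g were at 0 in every WT library. The part of these cells in the changes reported here was not tested.

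The other INK4 genes, which are the abundant ones here, did not pass the test. Cdkn2c, which encodes p18Ink4c (ENSMUSG00000028551, chr4:109660876-109667189), had 13.5, 11.6 and 10.5 CPM in WT and 9.84, 11.4 and 9.73 CPM in KO. Its groups overlapped, with a log2FC of -0.21 (95% interval -0.47 to 0.05, edgeR adjusted p = 0.361). Cdkn2d, which encodes p19Ink4d (ENSMUSG00000096472, chr9:21288410-21291407), had 45.0, 42.9 and 46.2 CPM in WT and 42.4, 39.8 and 44.0 CPM in KO. These too overlapped (log2FC -0.10, 95% interval -0.24 to 0.05, edgeR adjusted p = 0.452). Both intervals leave out a halving of either gene. Per length, as transcripts per 1000000 transcripts (TPM) over annotated exon bases, Cdkn2d made up 85.1, 86.4 and 88.0% of the 3 INK4 genes in WT and 86.6, 83.9 and 87.2% in KO. Cdkn2a made up 0, 0 and 0.254% in WT and 1.63, 2.05 and 1.54% in KO. The sum of the 3 genes was 92.3 to 99.9 TPM in WT and 89.4 to 98.3 TPM in KO, and these ranges overlapped.

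The KIP inhibitor Cdkn1b was the most abundant of the 9 genes per length. Cdkn1b (ENSMUSG00000003031, chr6:134920401-134925513) had 400.0, 406.5 and 393.3 CPM in WT and 416.6, 443.0 and 503.3 CPM in KO. All KO values lay above all WT values, but KO 1 by a small margin, and the spread was wider in KO (SD 44.4 CPM) than in WT (SD 6.61 CPM). The log2FC of 0.17 (95% interval 0.03 to 0.32, unadjusted p = 0.0241) did not pass the edgeR threshold (adjusted p = 0.167). It was 0.09 without KO 3, the highest library, and the adjusted p lay between 0.0631 and 0.386 over the alternatives.

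Of the 2 kinases, Cdk6 rose in KO and Cdk4 did not pass the test. Cdk6 (ENSMUSG00000040274, chr5:3341485-3531008) had 79.5, 80.6 and 90.7 CPM in WT and 112.4, 101.9 and 126.7 CPM in KO, and each KO library was above every WT library. It rose from 83.6 ± 6.18 to 113.7 ± 12.5 CPM (SD, n = 3), a log2FC of 0.43 (SE 0.09, 95% interval 0.24 to 0.62, edgeR adjusted p = 0.0158). The call was lost without WT 1 (adjusted p = 0.0963), without WT 2 (adjusted p = 0.0907) and without both libraries that lack Y-linked reads (adjusted p = 0.0549), while the log2FC stayed between 0.34 and 0.51 in all alternatives. Over these alternatives the adjusted p lay between 8.60e-08 and 0.0963. Within each genotype, Cdk6 was lowest in the library without Y-linked reads, 79.5 CPM in WT 1 and 101.9 CPM in KO 2, and with the Y-linked share as a covariate its log2FC was 0.34 (adjusted p = 0.00477). The 4 heat shock genes Hspa1a, Hspa1b, Hsph1 and Dnajb1 were also lowest of their genotype in these libraries. Hsph1 had 178.3, 274.6 and 272.9 CPM in WT and 538.2, 197.8 and 502.4 CPM in KO, and none of the 4 was called. Their part in the Cdk6 result was not tested.

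Cdk4 (ENSMUSG00000006728, chr10:127063534-127067920) had 115.7, 114.4 and 113.7 CPM in WT and 112.2, 113.9 and 103.3 CPM in KO. KO 3 stood below the other 5 libraries, which lay within a few CPM of each other. The log2FC was -0.07 (95% interval -0.18 to 0.04, edgeR adjusted p = 0.471), an interval that leaves out a rise of the size seen in Cdk6. Exons of Cdk4 and of Tspan31 overlap by 641 bases on opposite strands, and Tspan31 averaged 377.2 reads a library, so the Cdk4 count is uncertain if strand was ignored. Per length, Cdk4 remained the main kinase: Cdk6 made up 13.8, 14.1 and 15.6% of the pair in WT and 18.9, 17.2 and 22.2% in KO. These shares did not overlap. The sum of both kinases did, at 114.8 to 129.4 TPM in WT and 122.3 to 133.5 TPM in KO.

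The D cyclins had log2FC values of opposite sign, and neither passed the test. Ccnd2 (ENSMUSG00000000184, chr6:127125162-127152193) had 605.8, 614.9 and 650.3 CPM in WT and 753.1, 647.2 and 732.7 CPM in KO. KO 2 lay among the WT values, and KO 1 and KO 3 lay above them. The log2FC was 0.18 (95% interval 0.02 to 0.33, edgeR adjusted p = 0.181), and Ccnd2 passed only without KO 2 (adjusted p = 0.0332) or without a filter on low counts (adjusted p = 0.0447). Its adjusted p lay between 0.0332 and 0.436 over all alternatives. Ccnd3 (ENSMUSG00000034165, chr17:47505051-47599691) had 176.4, 173.8 and 160.1 CPM in WT and 149.3, 161.1 and 160.7 CPM in KO. WT 3 lay among the KO values (log2FC -0.13, 95% interval -0.24 to -0.01, edgeR adjusted p = 0.189). Exons of Ccnd3 overlap those of Bysl on the opposite strand by 361 bases, which leaves its count equally uncertain. Ccnd2 made up 76.2, 76.7 and 79.1% of the pair per length in WT and 82.5, 78.9 and 81.0% in KO, with KO 2 below WT 3. The sum of both cyclins was 241.7 to 269.0 TPM in WT and 274.8 to 295.0 TPM in KO, without overlap. In TPM Ccnd2 alone did not overlap either (191.2 to 206.5 in WT, 216.9 to 238.9 in KO). In CPM it did, as given above, so this separation depends on the scale. The third D cyclin, Ccnd1, was near absent at 0.222 to 0.745 CPM over the 6 libraries and was not tested.

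Rb1 (ENSMUSG00000022105, chr14:73183673-73325822), the substrate of these kinases, had 89.4, 94.7 and 88.7 CPM in WT and 94.4, 110.5 and 93.5 CPM in KO. KO 2 stood above all other libraries and the rest overlapped. The log2FC was 0.12 (95% interval -0.03 to 0.26, edgeR adjusted p = 0.354) and was 0.04 without KO 2. Rcbtb2 and Lpar6 lie on the opposite strand and share 488 and 408 exon bases with Rb1, so its count too is uncertain.

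**Figure D3:**
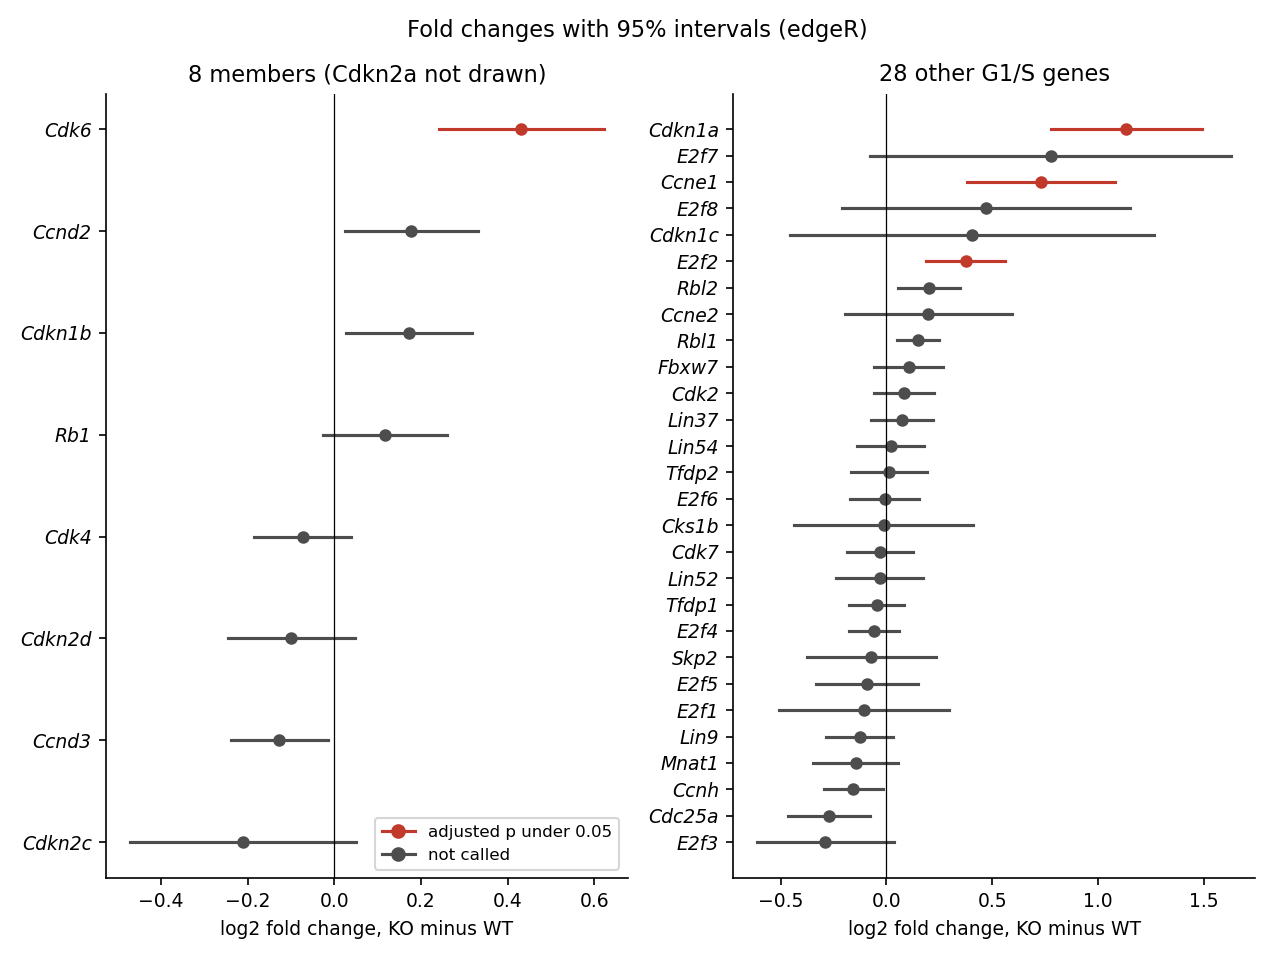
Log2FC values (KO minus WT, horizontal axis) with 95% intervals from edgeR for 8 of the 9 genes (left) and 28 other G1/S genes (right), red where the adjusted p is under 0.05. Cdkn2a is left out because its size of 3.99 depends on the prior count, and Cdk6 is the only red gene on the left.

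Ranked by level per length in WT, the order was Cdkn1b (260.8 ± 21.5 TPM), Ccnd2 (196.4 ± 8.71), Cdk4 (104.6 ± 7.27), Cdkn2d (84.1 ± 2.57), Ccnd3 (57.6 ± 6.33), Rb1 (44.9 ± 4.50), Cdk6 (17.7 ± 0.68), Cdkn2c (13.1 ± 2.11) and Cdkn2a. No neighbours in this order overlapped between WT libraries. The order in KO was the same, with Cdk6 at 24.6 ± 2.75 TPM, Cdkn1b at 303.0 ± 38.2 TPM and Cdkn2a at 1.64 ± 0.27 TPM (SD, n = 3). There Ccnd3 (48.9 to 57.9 TPM) and Rb1 (45.1 to 57.9 TPM) overlapped. Lengths are those of all annotated exons together (13989 bases for Cdk6, 1172 for Cdkn2a), so genes with rarely used exons are placed too low.

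**Figure D4:**
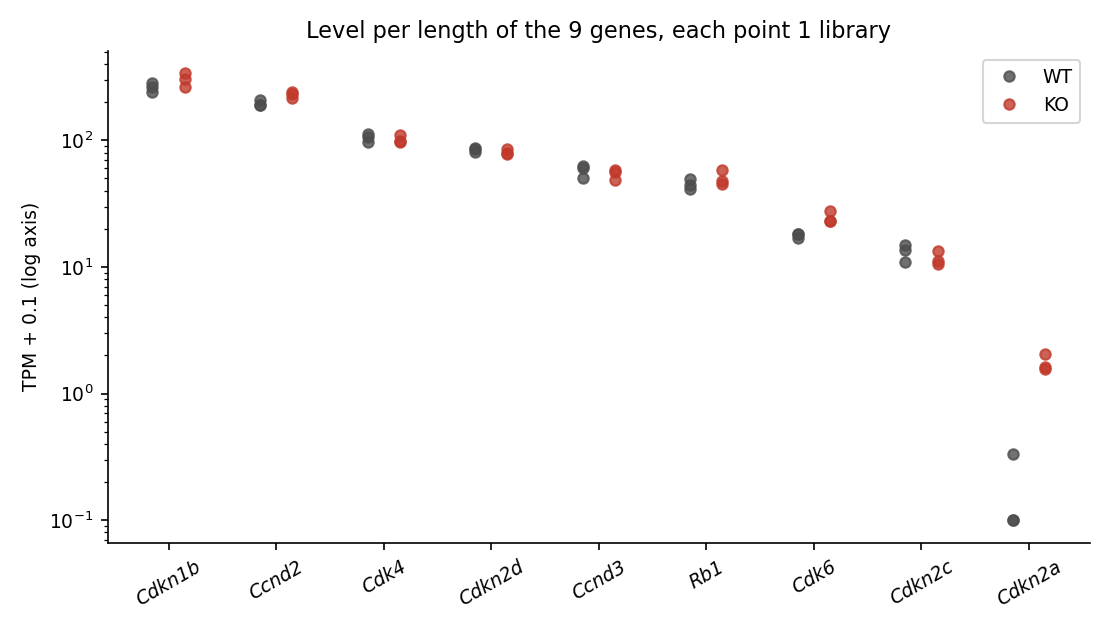
Level per length (TPM plus 0.1, log axis) of the 9 genes, each dot 1 library, WT in grey and KO in red, in the WT order. Cdkn1b and Ccnd2 lead in both genotypes, and Cdkn2a is last in both, at 0 to 0.235 TPM in WT and 1.46 to 1.95 TPM in KO.

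Among 30 other genes of the G1 to S step, 28 were tested, 3 rose, 0 fell and 25 were not called (10.7% called, against 6.45% of all genes). Their median log2FC was 0.00. This list and those that follow were chosen with earlier results of these data known, so their shares are not used as support. Cdkn1a, which encodes the KIP inhibitor p21, a p53 target, had 3.80, 2.85 and 3.73 CPM in WT and 8.20, 6.92 and 7.78 CPM in KO. It rose from 3.46 ± 0.53 to 7.63 ± 0.65 CPM (log2FC 1.13, SE 0.16, edgeR adjusted p = 0.00358), and kept its call in all alternatives, with the highest adjusted p of 0.0341 without both libraries that lack Y-linked reads. Ccne1, the cyclin E1 partner of CDK2, rose from 7.01 ± 1.59 to 11.7 ± 0.35 CPM (log2FC 0.73, edgeR adjusted p = 0.0220), and E2f2, an activating E2F factor, from 75.1 ± 2.52 to 98.4 ± 14.1 CPM (log2FC 0.38, edgeR adjusted p = 0.0260). The call of E2f2 was lost without any 1 of the WT libraries (highest adjusted p = 0.123) and that of Ccne1 without WT 1 (adjusted p = 0.0531) or KO 1 (adjusted p = 0.0519). The pocket proteins related to Rb1 did not pass: Rbl1 had a log2FC of 0.15 (adjusted p = 0.0848) and Rbl2 one of 0.20 (adjusted p = 0.113).

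Of 29 known upstream regulators of these genes, 28 were tested, 1 rose, 2 fell and 25 were not called (10.7%, median log2FC 0.00). Id2, an inhibitor of E proteins that also binds the retinoblastoma protein, fell from 51.3 ± 2.19 to 40.6 ± 2.98 CPM (log2FC -0.35, SE 0.06, edgeR adjusted p = 0.0117). Myc, a factor that drives D cyclin and Cdk4 transcription in many cells, had 170.1, 195.2 and 181.8 CPM in WT against 146.5, 149.1 and 161.4 CPM in KO. It fell by 0.27 on the log2 scale (edgeR adjusted p = 0.0308), and its groups did not overlap. Foxo4, a FOXO factor of the family that activates Cdkn1b, rose from 71.8 ± 5.41 to 88.3 ± 4.66 CPM (log2FC 0.29, edgeR adjusted p = 0.0193). The calls of Myc and Foxo4 were lost without WT 2, WT 3 or KO 2, that of Myc also without KO 1, and that of Id2 without WT 1, with highest adjusted p-values of 0.138, 0.105 and 0.0619. Without both libraries that lack Y-linked reads, neither these 3 genes nor Ccne1, E2f2 or Kif11 were called, with adjusted p-values from 0.0666 for Id2 to 0.178 for Kif11. Bmi1, a Polycomb repressor of Cdkn2a, had a log2FC of -0.20 (95% interval -0.32 to -0.08) that did not pass (edgeR adjusted p = 0.0611). Ezh2, another Polycomb gene of this list, went the other way with a log2FC of 0.10 and did not pass either (edgeR adjusted p = 0.357). Trp53 had one of -0.06 (adjusted p = 0.539) and Mdm2 one of 0.03 (adjusted p = 0.757).

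Downstream, 0 of 25 E2F target genes of S phase were called by edgeR, 0 by limma-voom and 1 by DESeq2, while 6 (24.0%) had an unadjusted p under 0.05, a share near the 20.4% of all genes tested. Their median log2FC was 0.07, with 16 positive and 9 negative. The smallest p was that of Uhrf1, a maintenance factor of DNA methylation, with 15.1 ± 0.64 CPM in WT and 19.8 ± 2.13 CPM in KO (log2FC 0.38, edgeR adjusted p = 0.0546). Helicase genes of replication gave values of both signs, such as -0.17 for Mcm2 (adjusted p = 0.172) and 0.10 for Mcm6 (adjusted p = 0.399). Of 13 mitosis genes 3 rose and 0 fell (23.1% called, against 6.45% of all genes, 3.25% higher and 3.20% lower). Of their log2FC values 12 of 13 were positive, with a median of 0.30. This list too was chosen with earlier results known, so neither its share nor its median is used as support. Mki67, a marker of cycling cells, had 53.4, 42.4 and 45.2 CPM in WT and 72.3, 77.8 and 69.3 CPM in KO, and its groups did not overlap (edgeR adjusted p = 0.00219). Top2a, the topoisomerase of condensing chromosomes, rose by 0.53 on the log2 scale (edgeR adjusted p = 0.00440) and the spindle motor gene Kif11 by 0.64 (adjusted p = 0.0189). The call of Kif11 was lost when any 1 library but KO 3 was left out (highest adjusted p = 0.0833).

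**Figure D5:**
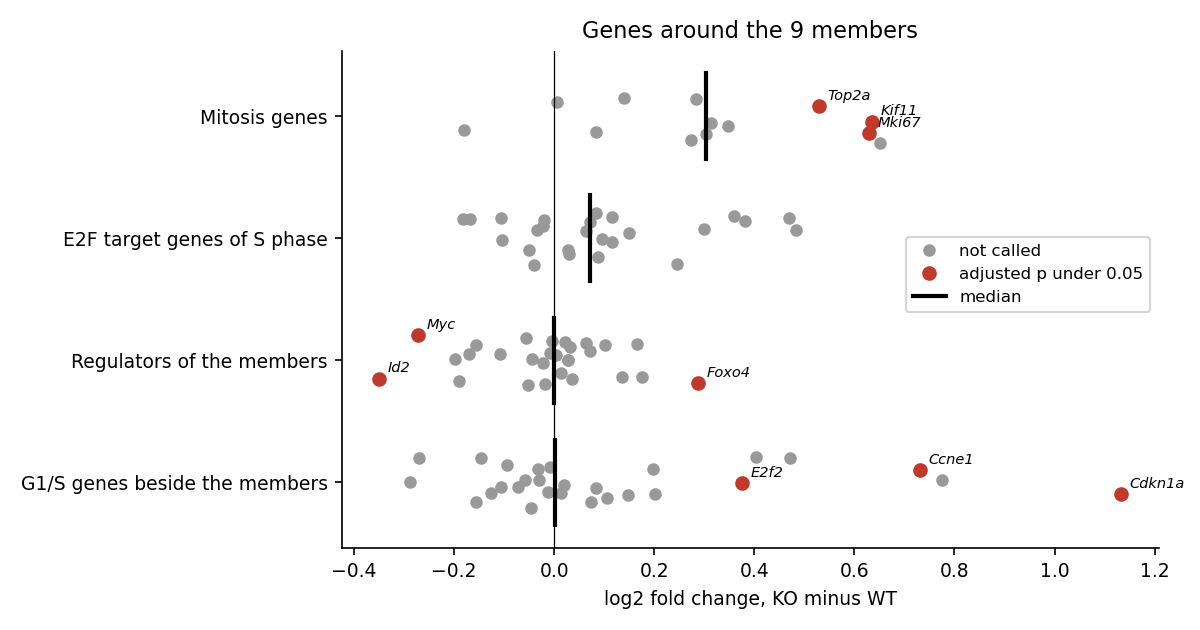
Log2FC values (KO minus WT, horizontal axis) of the tested genes in 4 lists around the 9 genes, each dot 1 gene, red where the edgeR adjusted p is under 0.05, with a black bar at the median. The mitosis genes lie to the right, with a median of 0.30, and the other medians lie between 0.00 and 0.07. The lists were chosen with earlier results of these data known.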

How the data were processed

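RNA of 6 libraries was measured by RNA-seq. The authors deposited raw counts of reads per gene and library, whole numbers with no scaling. Tools listed in the submitters' processing notes are HISAT2 2.1.0, fastp 0.23.2, DESeq2 1.34.0 and Picard, with mm10 as the build. Their order and role, the counter, its strand setting and the annotation release were not stated there. Symbols turned into dates by a spreadsheet (27) were restored from the gene identifier, and GENCODE M21 (GRCm38) gave exon lengths and overlaps.

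Genes were kept by filterByExpr (minimum count 10, minimum total 15), normalized by TMM and tested for KO against WT in 1 fit of all 6 libraries by edgeR 4.0.16 (R 4.3.3) with the quasi-likelihood F test, at a Benjamini-Hochberg adjusted p under 0.05 over 13602 genes. CPM are a gene's reads per 1000000 reads of its library. The SE is the log2 fold change divided by the square root of F, and intervals use the t distribution. Exact 95% intervals of read ratios are binomial. The alternatives were 3 other normalizations, 2 filters, DESeq2 1.42.0, limma-voom (limma 3.58.1), the replicate number as a block, the Y-linked share as a covariate, removal of antigen receptor segments with sex-linked genes and other-cell markers, an adjusted p under 0.1 and each library left out. On simulated counts of 13407 genes for KO against WT, the share of true changes called was 22% at 1.25-fold, 56% at 1.5-fold and 84% at 2-fold, and 11 of 140 calls were false. The simulation changed fewer genes than the 877 called in the data and included no mix of sexes. Its shares therefore need not carry over to these libraries. The members that did not pass had fitted changes below 1.25-fold, the smallest size in that check.

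The 9 genes and the lists were chosen with earlier results of these data known. Named by the rule are the 9 genes, Smarcd2, Mki67, up to 4 called genes of each list by adjusted p (or the one with the smallest p), and, for each called member, the 3 genes of at least 2 CPM nearest in pattern. The heat shock genes, Ikzf2, Il2ra, Ccnd1, Cdkn1c, Cdkn2b, Mtap, Rbl1, Rbl2, Bmi1, Ezh2, Trp53, Mdm2, Mcm2, Mcm6 and the E-box were chosen after their values or sequences were seen. The same holds for naming Jchain, Sdc1, Klrb1c and Ncr1 singly.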

Additional observations from a re-analysis of the deposited data

How the results depend on the processing

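No log2 fold change of the 9 genes or of Smarcd2 changed sign in any alternative. The count of called genes was 877, with 1624 without a filter and 1355 at an adjusted p under 0.1. It was 344 to 848 with 1 library left out (344 without WT 1 or WT 2, 556 without WT 3) and 186 without the 2 libraries lacking Y-linked reads. Of the 9 genes, 2 were called, 1 at a filter of 2 CPM, which removes Cdkn2a, and 1 in DESeq2, which gave Cdkn2a no adjusted p. With 1 library left out the count was 0 to 3 (0 without WT 1 or WT 2, 3 without KO 2), and without both libraries lacking Y-linked reads it was 0. Then Cdkn2a had a log2 fold change of 3.43 (3.43 to 6.69 with 1 library left out) and Cdk6 one of 0.47 (0.35 to 0.51). Ccnd2 had 0.17 without a filter, where it was called, and 0.12 to 0.25 with 1 library left out.

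The other G1/S genes had 3 calls, 5 without a filter or with the Y-linked covariate, 1 without the libraries lacking Y-linked reads, and 1 to 4 with 1 library left out. Regulators had 3 calls, 5 without a filter, with the covariate or at an adjusted p under 0.1, 0 without the libraries lacking Y-linked reads, and 1 to 3 with 1 left out. E2F targets had 0 calls, 1 under upper-quartile or library-size scaling, either filter change or DESeq2, 2 at an adjusted p under 0.1, and 0 to 1 with 1 library left out. Mitosis genes had 3 calls, and also under the other normalizations, either filter change, DESeq2, limma-voom, the replicate block and the Y-linked covariate. Of these calls, that of Kif11 was lost when any 1 library but KO 3 was left out. The cause of the changes in these counts was not tested.

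With the replicate number as a block, 738 genes and the same count of 2 of the 9 genes were called. Same-numbered libraries did not deviate together (correlations of -0.17, -0.02 and 0.17), and the largest value was 0.25, between WT 1 and KO 2. Taken as deviations from a mean of 3 libraries, these values cannot settle whether libraries were paired. Reads for Cdkn2a and Cdkn2b are few, and depth limits what can be said of either.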

Other observations

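The genes whose pattern over the 6 libraries lay nearest to that of the called members were taken by the root mean square difference of centred log2 CPM (0.5 CPM added), as a description without a test. For Cdkn2a these were Nckap1 (difference 0.07, its own log2 fold change 1.17), Maneal (0.07, log2 fold change 1.497) and Dclk2 (0.07, log2 fold change 1.11). The added 0.5 CPM shrinks the Cdkn2a change on this scale. For Cdk6 they were Gm28875 (0.04, log2 fold change 0.45), Drc1 (0.05, log2 fold change 0.37, adjusted p = 0.0673, not called) and Zfp608 (0.06, log2 fold change 0.44).

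The libraries without Y-linked reads, WT 1 and KO 2, were the lowest of their genotype for Ccnd2 (605.8 and 647.2 CPM) as well as for Cdk6, and the highest for Cdkn2c (13.5 and 11.4 CPM). They were also the lowest for the heat shock gene Hspa1b, which had 0.936, 5.56 and 11.1 CPM in WT and 24.1, 2.07 and 18.04 CPM in KO. Between these libraries Cdkn2a had 0 reads in WT 1 and 14 in KO 2. Cdkn1c, which encodes the KIP inhibitor p57, had 1.10, 0.570 and 1.14 CPM in WT and 0.795, 1.81 and 1.16 CPM in KO, and its groups overlapped.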
